A study of Homo sapiens with 6 samples.

Results

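Collagen genes were examined in HEK293 cells with and without the MUL1 gene. The members are all protein-coding genes whose symbol has the form COL, a number, A and a number, which gave 44 of the 57123 genes counted. The rule used the symbols alone. It was set with earlier results of these data known, so shares of members called only describe these genes. Of the 44, 42 passed the filter on low counts and were among the 25125 genes tested, and COL11A1 and COL22A1 were not tested. The members lie on 17 chromosomes.

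HEK293 is a line made from human embryonic kidney cells, and MUL1 is an E3 ubiquitin ligase of the mitochondrial outer membrane. RNA of 3 libraries labelled wild type (WT) and 3 labelled MUL1(-/-) was sequenced with an mRNA library kit, and the labels name no treatment for either genotype. The MUL1(-/-) line was made by genome editing in earlier work, and the number of clones behind the libraries is not given in the sources used here. The labels do not say whether a genotype's libraries came from separate cultures, and the study's methods speak of independent experiments only for its quantitative data in general, so p-values measure the spread between these libraries, which may be technical.

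Each collagen chain is translated into the endoplasmic reticulum, where prolines and lysines are hydroxylated before the chains wind into a triple helix. Fibrillar collagens are trimmed outside the cell and line up into fibrils, and FACIT collagens (fibril-associated collagens with interrupted triple helices) sit on their surface. Type IV collagens build the network of basement membranes, type VI forms beaded filaments, type VII anchors epithelia to the stroma, and others span the plasma membrane or release active fragments.

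Gene counts, summed over exon bins, totalled 127015142 to 142803296 in WT and 121917971 to 122441959 in MUL1(-/-) libraries, and 3 counts, taken as the floor of detection, equalled 0.0210 to 0.0246 CPM, the counts-per-million scale. That floor covers counting error only. Over 1000 counts in a library were found in 1501 bins of 10 bases or less, which are shorter than a read, so a read that crosses bins can be counted more than once and these sums are not numbers of reads. The strand setting of the counting is not given in the sources used here. In 92 pairs of bins on opposite strands with at least 100 counts that overlap by at least 90% of the longer bin, the lower count was 0.992 of the higher in the median, so reads in bins shared with a gene of the opposite strand cannot be given to either. MUL1 itself was at 16.5 ± 2.15 CPM (SD, n = 3) in WT and 18.2 ± 1.35 CPM in MUL1(-/-) libraries (log2 fold change 0.14, SE 0.10, adjusted p = 0.321, edgeR). The RNA therefore does not check the genotype labels, and directions below are those of the libraries as labelled. Of 6 HEK293 marker genes, VIM, KRT8, KRT18, NEFL, NEFM and PAX2 were all detected in every library. In bulk RNA, fewer cells expressing a gene and less RNA per cell cannot be told apart.

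Collagen genes moved in both directions. A gene was called when its adjusted p was under 0.05 and its absolute log2 fold change above 1, in edgeR's quasi-likelihood test over all genes with Benjamini-Hochberg adjustment. By this rule 7 collagen genes were higher in MUL1(-/-) libraries (16.7% of the 42 tested, against 4.23% of all genes tested) and 5 were lower (11.9%, against 3.87%). Those that rose were COL3A1, COL5A2, COL5A3, COL6A3, COL7A1, COL9A1 and COL12A1, and those that fell were COL2A1, COL9A3, COL18A1, COL23A1 and COL24A1. With the adjusted p alone, 10 were higher (18.8% of all genes) and 14 lower (18.7%). The genotypes did not overlap in 25 of the 42 (59.5%, against 48.5% of all genes), which include all 12 called. The median log2 fold change was -0.11 over the members and -0.01 over all genes, and the median absolute value was 0.53 against 0.29. An absolute log2 fold change above 3 was reached by 5 members, against 0.776% of all genes. Just inside the fold threshold lay COL6A3 (1.05), and just outside it lay COL9A2 (-0.99), COL13A1 (-0.93) and COL6A1 (-0.92).

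The sequence before the start is shown for 3 genes: COL12A1 and COL23A1, the member that rose most and a strongly fallen member, and COL18A1, whose 2 starts had different counts. All are reference sequence from RefSeq on GRCh38.p14, written in the direction of transcription, with bases annotated as exon left out and with GGGCGG on either strand, the GC box bound by SP1, in capitals. COL12A1 is shown from chr6:75206054-75206303 (minus strand), COL23A1 from chr5:178590556-178590643 (minus strand), and COL18A1 from chr21:45404915-45405136 and chr21:45455272-45455488 (plus strand).
COL12A1: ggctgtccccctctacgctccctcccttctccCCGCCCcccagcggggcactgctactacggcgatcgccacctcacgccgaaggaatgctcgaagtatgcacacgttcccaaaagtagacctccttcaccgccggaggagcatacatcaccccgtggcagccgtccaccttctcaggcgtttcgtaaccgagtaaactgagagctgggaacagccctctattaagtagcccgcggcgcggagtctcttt
COL23A1: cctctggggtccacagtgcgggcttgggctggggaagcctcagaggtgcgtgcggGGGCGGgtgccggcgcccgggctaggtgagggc
COL18A1 start 1: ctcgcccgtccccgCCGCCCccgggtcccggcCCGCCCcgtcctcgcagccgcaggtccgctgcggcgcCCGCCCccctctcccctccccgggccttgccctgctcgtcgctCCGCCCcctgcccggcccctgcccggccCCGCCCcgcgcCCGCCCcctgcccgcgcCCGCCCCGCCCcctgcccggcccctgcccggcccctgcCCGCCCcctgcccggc
COL18A1 start 2: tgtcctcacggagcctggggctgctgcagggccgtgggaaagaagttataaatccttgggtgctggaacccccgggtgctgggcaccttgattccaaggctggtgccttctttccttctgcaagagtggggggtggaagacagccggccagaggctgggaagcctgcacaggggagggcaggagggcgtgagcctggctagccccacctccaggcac

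The stretch before the first COL18A1 start held 9 GC boxes, the stretch before the second start held 0, and the COL12A1 and COL23A1 stretches held 1 each. In that order they were 222, 217, 250 and 88 bases long, with 88.7%, 64.1%, 61.2% and 76.1% G or C. The counts were not adjusted for length or base content. TATAAA, the core of the TATA box, was found once, before the second COL18A1 start. The core letters of the hypoxia response element, ACGTG and GCGTG, were each found 1 time before COL12A1, and GCGTG also 1 time before COL23A1 and 1 time before the second COL18A1 start. Windows of 250 bases were on file for 32 collagen genes (44 starts), and COL1A1, COL1A2, COL2A1, COL3A1, COL5A2, COL6A1, COL6A5, COL8A1, COL9A3, COL14A1, COL20A1 and COL22A1 are named only. GGGCGG was in 54.5% of the 44 windows and in 42.6% of all 35116 windows, both strands searched. The other shares were 18.2% against 10.7% for TATAAA, 27.3% against 32.0% for CCAAT, 15.9% against 18.5% for ACGTG and 34.1% against 32.2% for GCGTG. A match describes letters in the window and is not a measured site.

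Levels between genes were compared as mean CPM per kilobase of exon. In WT libraries COL6A1 was highest at 23.2 CPM per kilobase, followed by COL2A1 (11.99), COL4A2 (11.9), COL4A1 (11.8), COL18A1 (11.3) and COL14A1 (10.5). In MUL1(-/-) libraries COL4A2 (14.9) and COL4A1 (14.8) came first, then COL6A1 (12.3), and COL2A1 went from rank 2 to rank 28 of the 44. The members' summed level was 880 ± 99.6 CPM in WT and 762 ± 57.5 CPM in MUL1(-/-) libraries (SD, n = 3), and the libraries overlapped. The 6 highest members held 66.9% of that sum in WT and 62.1% in MUL1(-/-) libraries. A mean of at least 1 CPM was reached by 30 members in WT and by 28 in MUL1(-/-) libraries.

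Among the 11 fibrillar collagen genes, 10 were tested, 3 rose and 2 fell. COL2A1 encodes the chain of type II collagen, the main fibril of cartilage (chr12:47972965-48004554). It was at 89.7, 83.9 and 63.8 CPM in the 3 WT libraries and at 1.24, 0.942 and 0.549 CPM in the 3 MUL1(-/-) libraries. Every MUL1(-/-) value lay far below every WT value. The WT level was 86.7-fold higher (75.2 to 99.8 at 1 SE), the lowest log2 fold change of any member (-6.44, SE 0.20, adjusted p = 8.72e-12, edgeR). With no filter on counts, the mean CPM was lower in MUL1(-/-) libraries in 69 of its 69 exon bins. Exon 2 of the 54-exon transcript COL2A1-202 (chr12:47999919-48000125, 207 bases) was counted 344, 337 and 242 times in WT libraries. This is the exon that marks the IIA form of type II procollagen, and in MUL1(-/-) libraries it was counted 2, 3 and 3 times.

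COL24A1, a minor fibrillar chain, was the other fibrillar gene that fell. Its levels were 3.39, 3.62 and 3.05 CPM in WT and 0.253, 0.319 and 0.403 CPM in MUL1(-/-) libraries, with a gap between the genotypes (log2 fold change -3.36, SE 0.18, adjusted p = 2.95e-09, edgeR). Counts along the gene were low, with a mean of at least 10 counts in either genotype in 7 of its 71 bins. In 3 stretches of about equal exon length, the first went from 0.367 to 0.00532 CPM. The latter value lies under the floor of 3 counts, so the first stretch gives no size of the change. The middle went from 1.99 to 0.195 CPM and the last from 0.992 to 0.125 CPM. Its most counted bin (chr1:86124845-86126091) held 38, 57 and 57 counts in WT and 0 in each MUL1(-/-) library.

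COL3A1 and COL5A2 lie next to each other on chromosome 2, read towards each other (188974320-189012746 on the plus strand and 189031896-189225312 on the minus strand). COL3A1 encodes type III collagen, the fibril of compliant tissues. It was at 4.82, 6.40 and 4.17 CPM in WT and at 10.7, 11.3 and 17.9 CPM in MUL1(-/-) libraries. The lowest MUL1(-/-) value exceeded the highest WT value (log2 fold change 1.37, SE 0.19, adjusted p = 3.68e-05, edgeR). COL5A2, a chain of the type V collagen that starts fibrils, was at 7.91, 6.05 and 6.62 CPM in WT and at 16.9, 17.5 and 22.0 CPM in MUL1(-/-) libraries (log2 fold change 1.45, SE 0.12, adjusted p = 4.53e-07, edgeR). The mean CPM was higher in MUL1(-/-) libraries in 64 of 67 COL3A1 bins and in 59 of 59 COL5A2 bins. The median log2 fold change of the 20 tested genes around each of them was 0.09.

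COL5A3, a rarer type V chain, rose from a low level. It was at 0.118, 0.283 and 0.365 CPM in WT and at 0.766, 0.695 and 0.428 CPM in MUL1(-/-) libraries, with the closest values of the genotypes only a little apart (log2 fold change 1.30, SE 0.33, adjusted p = 0.00604, edgeR). Its 20 neighbouring genes had a median log2 fold change of 0.59, and without WT replicate 1 its own was 0.96, below the threshold. Among the fibrillar genes not called, COL1A1, the main chain of type I collagen, was at 21.9 ± 2.53 CPM in WT and 16.8 ± 1.91 CPM in MUL1(-/-) libraries (SD, n = 3, log2 fold change -0.39, adjusted p = 0.00832, edgeR). COL11A2, a type XI chain, had a log2 fold change of 0.37 (adjusted p = 0.0290, edgeR). For COL1A2, COL5A1 and COL27A1 the adjusted p was 0.428, 0.0988 and 0.330 (edgeR). COL1A2, the second type I chain, was at 1.26, 4.25 and 1.61 CPM in WT and at 3.33, 1.72 and 4.40 CPM in MUL1(-/-) libraries, and without WT replicate 2 its log2 fold change was 1.13 (adjusted p = 0.00923, edgeR). COL11A1 was counted 5, 2 and 6 times in WT and 2, 15 and 9 times in MUL1(-/-) libraries, too few to be tested.

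**Figure D1:**
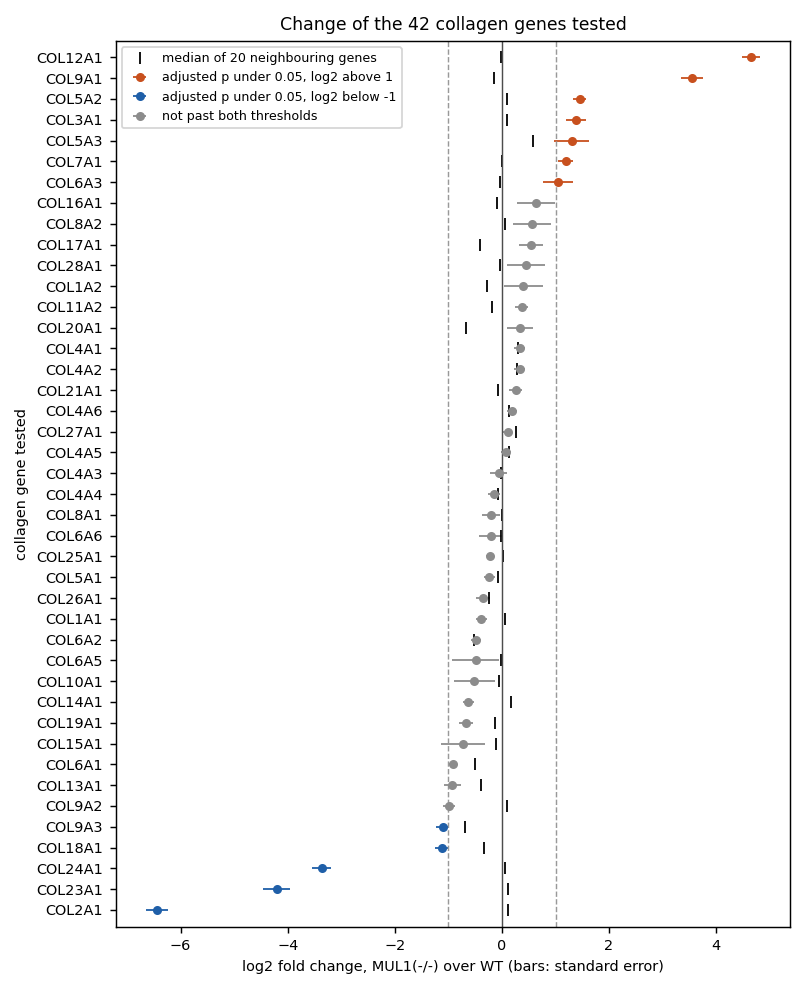
Log2 fold change of the 42 collagen genes tested, MUL1(-/-) over WT, with bars of 1 SE and dashed lines at the fold threshold of 1. Orange points are the 7 called higher, blue the 5 called lower, grey the rest, and black ticks the median of the 20 neighbouring genes. COL12A1 (4.64) and COL2A1 (-6.44) stand at the ends, while the ticks stay within the dashed lines.

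None of the 6 basement membrane genes of type IV was called, and COL4A1 and COL4A2 were among the most abundant members per kilobase. COL4A2, the highest of them per kilobase, was at 119, 108 and 83.6 CPM in WT and at 119, 122 and 147 CPM in MUL1(-/-) libraries. Its genotypes touched at their edges without crossing (log2 fold change 0.33, SE 0.11, adjusted p = 0.0303, edgeR). COL4A1 had the same log2 fold change of 0.33 (adjusted p = 0.0134 in edgeR, SE 0.10). The 20 genes around COL4A1 and COL4A2 had medians of 0.30 and 0.27. COL4A3, COL4A4, COL4A5 and COL4A6, whose chains make the networks of kidney, lung and smooth muscle, had log2 fold changes of -0.15 to 0.19 with adjusted p of 0.118 to 0.781 (edgeR).

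Type IV genes lie in head-to-head pairs, with 126 bases between the RefSeq starts of COL4A1 and COL4A2, 379 between those of COL4A6 and COL4A5 and 418 between those of COL4A4 and COL4A3. COL4A1 and COL4A2 were close to equal in every library, at 0.953, 0.996 and 1.05 in WT and 0.994, 1.02 and 0.983 in MUL1(-/-) libraries as the ratio of CPM per kilobase. The genotypes' mean log2 ratios differed by less than 0.01, well inside the spread between libraries (exact permutation p = 0.9, two-sided, Benjamini-Hochberg adjusted 0.975).

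Ratios between chains that can share a fibril or molecule were compared over 13 pairs, and in 7 of them the genotypes did not overlap. For single genes, 48.5% of all genes tested did not overlap, and the share over ratios of other genes was not computed. Most of the 7 pairs include a called gene, so their count partly repeats those calls. With 3 libraries against 3 the smallest two-sided exact permutation p is 0.1, which became 0.186 after adjustment over the 13, so no pair could pass. The ratio of COL2A1 to COL11A2 went from 11.3 in WT to 0.0967 in MUL1(-/-) libraries (geometric means). For COL5A1 to COL5A2 it went from 1.22 to 0.380, for COL6A1 to COL6A2 from 2.49 to 1.85, and for COL9A1 to COL9A2 from 0.0187 to 0.457. In MUL1(-/-) libraries 87.0% of COL9A1 counts lay in its last 15 bins, so this last ratio does not compare whole chains. The ratio of COL3A1 to COL5A2 overlapped, at 0.771 and 0.723 (exact permutation p = 1.00, two-sided), as did that of COL9A2 to COL9A3, at 1.94 and 2.11 (exact permutation p = 0.6).

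Of the 5 beaded filament genes of type VI, COL6A3 was the only one called. COL6A3, the large chain that completes the type VI molecule, was at 0.393, 0.933 and 0.405 CPM in WT and at 1.45, 0.950 and 1.22 CPM in MUL1(-/-) libraries. The second library of each genotype almost met (log2 fold change 1.05, SE 0.28, adjusted p = 0.00829, edgeR). Leaving out WT replicate 1, WT replicate 3 or MUL1(-/-) replicate 1 took it below the fold threshold (0.84, 0.85 and 0.91). COL6A1 was at 124 ± 9.60 CPM in WT and 65.7 ± 3.20 CPM in MUL1(-/-) libraries (SD, n = 3), a log2 fold change of -0.92 (adjusted p = 3.26e-07, edgeR) with a lower mean in 47 of 47 bins. Its neighbour COL6A2 had -0.48 (adjusted p = 0.000803, edgeR) with a lower mean in 39 of 42 bins. Both lie on chromosome 21, where the 20 genes around them had medians of -0.50 and -0.53. COL6A5 and COL6A6 stayed at 0.0719 to 0.622 CPM in every library (adjusted p 0.417 and 0.518, edgeR).

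COL7A1, the only chain of the anchoring fibrils, rose. It was at 8.51, 7.85 and 12.6 CPM in WT and at 22.1, 21.4 and 22.6 CPM in MUL1(-/-) libraries. The MUL1(-/-) values were close together and all above the WT values (log2 fold change 1.19, SE 0.14, adjusted p = 9.60e-06, edgeR), and the mean was higher in 142 of 143 bins. Of the 3 short-chain network genes, 0 were called. COL8A1, the highest of them per kilobase, had a log2 fold change of -0.21 (adjusted p = 0.371 in edgeR, SE 0.17). COL8A2 and COL10A1, the latter a collagen of growth plate cartilage, stayed at 0.0708 to 0.492 CPM in every library (adjusted p 0.244 and 0.323, edgeR).

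The FACIT class had 10 members, of which 9 were tested, 2 rose and 1 fell. COL12A1 encodes type XII collagen, which lies along type I fibrils (chr6:75084326-75206051). It was at 2.43, 1.99 and 2.10 CPM in WT and at 49.0, 70.8 and 42.9 CPM in MUL1(-/-) libraries. The WT libraries were nearly equal, and even the lowest MUL1(-/-) library was far above them. The MUL1(-/-) level was 25.0-fold higher (22.2 to 28.1 at 1 SE), a log2 fold change of 4.64 (adjusted p = 3.21e-11 in edgeR, SE 0.17). Per kilobase it went from 0.174 to 4.35 CPM. The mean CPM was higher in 88 of its 88 bins. The 20 genes around COL12A1 had a median of -0.02.

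The 3 chains of type IX collagen, which decorates type II fibrils in cartilage, did not move together. COL9A1 was at 0.409, 0.318 and 0.190 CPM in WT and at 3.21, 3.78 and 3.82 CPM in MUL1(-/-) libraries, with no overlap (log2 fold change 3.55, SE 0.21, adjusted p = 8.33e-09, edgeR). COL9A3 was at 5.85, 5.84 and 4.83 CPM in WT and at 2.80, 2.59 and 2.27 CPM in MUL1(-/-) libraries, again with no overlap (log2 fold change -1.11, SE 0.13, adjusted p = 8.53e-06, edgeR). COL9A2 was at 9.20 ± 1.01 CPM in WT and 4.62 ± 0.139 CPM in MUL1(-/-) libraries (SD, n = 3), a log2 fold change of -0.99 that missed the fold threshold (adjusted p = 5.42e-06, edgeR) and passed it without WT replicate 2, WT replicate 3 or MUL1(-/-) replicate 3 (-1.05, -1.04 and -1.02). For COL9A3, 18.5% of counts lay in bins shared with TCFL5 on the opposite strand (log2 fold change -0.77, adjusted p = 2.68e-06, edgeR), its 20 neighbours had a median of -0.70, and its change less that median was -0.41. Over bins that no other gene overlaps, COL9A3 had a log2 fold change of -1.11 (adjusted p = 1.58e-05, edgeR). The part of the surrounding genes in its fall was not tested.

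The rise of COL9A1 lay in the 3′ part of the gene. Its last 15 bins (chr6:70215061-70242035) were counted 13, 26 and 12 times in WT and 359, 408 and 410 times in MUL1(-/-) libraries. The 42 bins before them (chr6:70242662-70303083) were counted 39, 19 and 12 times in WT and 47, 65 and 64 times in MUL1(-/-) libraries. The 3′ bins thus held 42.1% of the gene's counts in WT and 87.0% in MUL1(-/-) libraries, while no bin before them exceeded 7 counts in any library. The division was chosen after the counts were seen, at the first bin with a mean of 10 counts in MUL1(-/-) libraries. An antisense gene, ENSG00000253809, spans chr6:70222758-70242156 on the opposite strand and shares 1 exon bin with COL9A1. It was counted 1, 4 and 0 times in WT and 16, 23 and 15 times in MUL1(-/-) libraries. Under COL9A1 the shared bin held 1, 4 and 0 counts in WT and 17, 23 and 14 in MUL1(-/-) libraries, so reads of the pair cannot be told apart there.

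Of the other FACIT genes, COL14A1, whose product binds fibrils in tendon and skin, was the highest per kilobase. It was at 97.0, 95.0 and 79.2 CPM in WT and at 53.0, 54.0 and 68.2 CPM in MUL1(-/-) libraries, without overlap but below the fold threshold (log2 fold change -0.63, SE 0.10, adjusted p = 0.000171, edgeR). COL19A1, which lies next to COL9A1 on chromosome 6 (69866571-70209976, plus strand), had a log2 fold change of -0.68 (adjusted p = 0.000820, edgeR). COL16A1, COL20A1 and COL21A1 had log2 fold changes of 0.64, 0.34 and 0.26 with adjusted p of 0.179, 0.308 and 0.113 (edgeR), and COL16A1 had 1.42 without WT replicate 1. COL22A1 was counted 3, 0 and 0 times in WT and 3, 0 and 1 times in MUL1(-/-) libraries, at or under the floor throughout.

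Of the 4 transmembrane collagens, COL23A1 fell. It was at 4.48, 4.58 and 2.63 CPM in WT and at 0.261, 0.224 and 0.145 CPM in MUL1(-/-) libraries. Every WT library was far above every MUL1(-/-) library, and the fitted log2 fold change was -4.21 (adjusted p = 1.22e-08 in edgeR, SE 0.25). The mean CPM was lower in 33 of its 35 bins. COL25A1, found in neurons and the highest transmembrane member per kilobase, had a log2 fold change of -0.23 (adjusted p = 0.0253 in edgeR, SE 0.07). COL13A1, a collagen of the neuromuscular junction, had -0.93 (SE 0.16, adjusted p = 0.000358, edgeR), with -0.40 as the median of its 20 neighbours, and passed the fold threshold without WT replicate 3 or MUL1(-/-) replicate 2 (-1.11 and -1.002). COL17A1, the hemidesmosome collagen, was at 0.368 to 0.598 CPM in WT and 0.616 to 0.879 CPM in MUL1(-/-) libraries (adjusted p = 0.0750, edgeR).

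COL18A1, a multiplexin whose C-terminal fragment is endostatin, fell. It was at 111, 99.4 and 77.6 CPM in WT and at 38.3, 41.0 and 53.3 CPM in MUL1(-/-) libraries. The groups were separate but the third library of each lay nearest the other genotype (log2 fold change -1.12, SE 0.13, adjusted p = 8.27e-06, edgeR). Bins that began between 300 bases before and 2000 bases after the first start, the start with 9 GC boxes before it, were counted 486, 448 and 350 times in WT and 154, 140 and 259 times in MUL1(-/-) libraries. Those around the second start were counted 15, 28 and 21 times in WT and 13, 9 and 26 times in MUL1(-/-) libraries. The mean CPM was lower in 51 of its 52 bins. Bins shared with SLC19A1, a folate carrier gene on the opposite strand (log2 fold change -0.26, adjusted p = 0.0242, edgeR), held 20.8% of COL18A1 counts, and the most counted bin, of 1152 bases at the 3′ end, was among them. In that bin alone the log2 fold change was -0.27 (adjusted p = 0.0845, edgeR), whereas without all shared bins COL18A1 was still called. The 20 genes around it had a median of -0.33, and its change less that median was -0.79. COL15A1, the other multiplexin, was at 0.0565 to 0.302 CPM (adjusted p = 0.180, edgeR), with a log2 fold change of -0.73 that was -1.38 without MUL1(-/-) replicate 2. Of the unclassed genes, COL26A1 had a log2 fold change of -0.36 (adjusted p = 0.0453, edgeR) and COL28A1 0.45 (adjusted p = 0.350, edgeR).

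By class, the summed level of fibrillar genes was 158 ± 18.8 CPM in WT and 94.3 ± 9.18 CPM in MUL1(-/-) libraries (SD, n = 3). Without COL2A1 it was 78.7 ± 6.95 against 93.4 ± 9.45 CPM, the other way round and with libraries that overlapped. The basement membrane sum was 259 ± 36.1 against 312 ± 32.0 CPM, again with libraries that overlapped. The transmembrane sum was 47.0 ± 4.57 against 34.3 ± 1.05 CPM. The beaded filament sum was 175 ± 11.8 against 103 ± 8.23 CPM, and the multiplexin sum 96.3 ± 17.0 against 44.3 ± 7.92 CPM. The FACIT sum was 128 ± 13.7 against 146 ± 14.3 CPM, with libraries that overlapped, and without COL12A1 it was 126 ± 13.7 against 91.5 ± 9.95 CPM. Each gene was divided into 3 stretches of about equal exon length, and the share of counts in the stretch at the 3′ end was taken. Over the 17 collagen genes not called that had at least 30 counted bins, it was compared between libraries. Its median was 26.3% to 30.2% in WT and 29.5% to 30.2% in MUL1(-/-) libraries.

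Genes that process, bind or degrade collagens were compared in 7 lists with 85 genes, of which 82 were tested. Of these 7 were higher (8.54%, against 4.23% of all genes tested) and 7 lower (8.54%, against 3.87%). The lists were chosen with earlier results of these data known, so the shares may reflect that choice and only describe the lists. Of 19 hydroxylation, glycosylation and folding genes, 1 rose and 0 fell. P3H2, a prolyl 3-hydroxylase, was at 5.79, 5.04 and 5.32 CPM in WT and at 11.4, 11.3 and 10.1 CPM in MUL1(-/-) libraries (log2 fold change 1.02, SE 0.10, adjusted p = 2.50e-06, edgeR). Without WT replicate 2 its log2 fold change was 0.97. P4HB, PPIB and FKBP10, the most abundant of the list, had log2 fold changes of 0.08, 0.00 and 0.15 with adjusted p of 0.431, 0.993 and 0.110 (edgeR). With the adjusted p alone, 3 of the 19 were higher and 4 lower (18.8% and 18.7% of all genes). The lower ones included P4HA1, with a log2 fold change of -0.77 (adjusted p = 3.82e-06, edgeR), whose 20 neighbours had a median of -0.45. P4HA2 and CRTAP had -0.40 and -0.31 (adjusted p = 0.00145 and 0.00701, edgeR).

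Among 13 export and propeptide cleavage genes, 1 rose and 3 fell. ADAMTS2, which removes the N-propeptide of fibrillar procollagens, was at 23.6, 23.9 and 17.8 CPM in WT and at 8.60, 8.81 and 7.66 CPM in MUL1(-/-) libraries (log2 fold change -1.38, SE 0.12, adjusted p = 3.70e-07, edgeR). Its relative ADAMTS14 fell by 1.24 on the log2 scale from a low level (adjusted p = 0.00332, edgeR). The C-propeptide is cut by proteases of the BMP1 family, of which TLL2 fell by 1.14 on the log2 scale (adjusted p = 4.79e-06, edgeR). TLL1 was counted 0, 5 and 1 times in WT and 107, 101 and 119 times in MUL1(-/-) libraries (adjusted p = 1.38e-07, edgeR), and its fitted log2 fold change of 5.76 rests on a WT level near the floor. MIA3, SEC23A and KLHL12, the most abundant others, had log2 fold changes of -0.27, -0.02 and -0.33.

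Of 7 cross-linking genes, 2 fell and 0 rose. PXDN, the peroxidase that cross-links type IV collagen, was at 66.3, 63.7 and 63.8 CPM in WT and at 14.4, 15.9 and 20.5 CPM in MUL1(-/-) libraries. Its WT libraries were nearly equal and the MUL1(-/-) libraries all far below (log2 fold change -1.93, SE 0.11, adjusted p = 4.73e-09, edgeR). LOXL4, a lysyl oxidase, fell by 1.36 on the log2 scale (adjusted p = 1.21e-05, edgeR), while LOX, LOXL3 and LOXL1 had 0.54, -0.09 and -0.07. Among 15 basement membrane partners, LAMB3, a chain of an epithelial laminin, was at 0.307, 0.339 and 0.698 CPM in WT and at 5.89, 5.30 and 4.40 CPM in MUL1(-/-) libraries (log2 fold change 3.54, SE 0.23, adjusted p = 3.37e-08, edgeR). HSPG2, which encodes perlecan, was the 1 that fell (log2 fold change -1.03, SE 0.12, adjusted p = 8.12e-06, edgeR). Without WT replicate 1, WT replicate 2 or MUL1(-/-) replicate 1 it lost the call (-0.95, -0.94 and -0.998). LAMB1, LAMC1 and AGRN, the most abundant others, had log2 fold changes of -0.71, 0.20 and -0.83.

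Of 11 collagen receptors, GP6, a platelet receptor gene at under 1 CPM, rose (log2 fold change 1.88, SE 0.30, adjusted p = 0.000172, edgeR), while ITGB1, DDR1 and MRC2, the most abundant, had -0.04, -0.06 and -0.57. Of 11 proteases and inhibitors, 9 were tested and MMP13, a collagenase, rose from a low level with overlapping libraries (log2 fold change 1.53, SE 0.51, adjusted p = 0.0264, edgeR). Its call was lost without WT replicate 1, WT replicate 2 or MUL1(-/-) replicate 3 (1.32, 1.37 and 0.72). TIMP1, TIMP3 and TIMP2 had 0.11, -0.06 and -0.16. Of 9 fibril-associated genes, 8 were tested, 2 rose and 1 fell. LUM and DCN, small proteoglycans that coat fibrils and neighbours on chromosome 12, had log2 fold changes of 3.09 (SE 0.18, adjusted p = 6.80e-09, edgeR) and 1.30 (SE 0.15, adjusted p = 7.14e-06, edgeR). SPARC, a collagen-binding protein, fell by 1.61 on the log2 scale (adjusted p = 4.54e-07, edgeR), and FN1, TNXB and MATN2 had -0.20, 0.69 and 0.28.

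Markers of other cell types were read beside these changes. Over all genes tested, 4.23% were called higher and 3.87% lower. Of 7 fibroblast markers, all tested, 3 were higher (LUM, DCN and POSTN) and 1 lower (THY1). LUM and DCN were already counted above among the fibril-associated genes. The summed level of the 7 was 5.01 to 5.65 CPM in WT and 13.8 to 21.2 CPM in MUL1(-/-) libraries. PDGFRA overlapped between genotypes at 1.29 to 1.77 CPM, and THY1, PDGFRB and FAP were at 0.410 CPM or less in every library. Of 4 smooth muscle markers, 0 were called, with sums of 12.8 to 14.7 CPM in WT and 13.1 to 13.6 CPM in MUL1(-/-) libraries. Of 4 endothelial markers, 3 were tested and 2 were higher. The sums of the 4 were 0.302 to 0.495 against 0.766 to 0.956 CPM, and CDH5 was at 0.0719 CPM or less. Of 5 leukocyte markers, 4 were tested and 2 were higher. The sums of the 5 were 1.01 to 1.39 against 1.67 to 2.43 CPM, and CD3E had at most 1 count in any library. Of the HEK293 markers, NEFM rose and PAX2 fell, with sums of 1291 to 1511 against 921 to 1098 CPM. The part of these in the collagen changes was not tested.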

How the data were processed

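RNA of 3 WT and 3 MUL1(-/-) HEK293 samples was sequenced from libraries of mRNA. The authors deposited raw counts per exon bin, 1 table per sample, without normalization. The submitters' processing notes name Trimmomatic 0.36, STAR 2.5.2b and GRCh38, and the counting program is not given in the sources used here. Counts of 597973 bins were summed per gene. Bins under joined identifiers (20.98% of all counts) were divided by the positions of the joined genes' exons in GENCODE 29. Bins with 4.37% of all counts could not be given to 1 gene and were left out. The plan had assumed counts per gene. No collagen gene lay under a joined identifier. Genes were named from the name table or GENCODE 29.

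The test was the quasi-likelihood test of edgeR 4.0.16 (R 4.3.3) after filterByExpr, with Benjamini-Hochberg adjustment over all genes tested. Library sizes, also those of CPM values, were scaled by TMM, whose factors were 0.946 to 0.992 for WT and between 1.02 and 1.03 for MUL1(-/-). DESeq2 1.42.0 and limma 3.58.1 served as alternatives. Scripts were tested on simulated data. Python 3.11.15 made the tables and figures. Replicates differed by 2.95 to 10.8 times the sampling noise as chi-square per degree of freedom and were kept as separate samples. Collagen genes past both thresholds with at least 0.5 CPM in either genotype, the highest per kilobase of each class, and called and up to 3 abundant genes of each list are named. Members, lists and tests were chosen with earlier results of these data known. Sequences came from RefSeq on GRCh38.p14.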

Additional observations from a re-analysis of the deposited data

How the results depend on the processing

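The 12 collagen calls were shared 12 of 12 by limma-voom and by DESeq2, under RLE factors or plain library totals, without the filter, and over bins free of other genes. Asking for 1 CPM in 3 samples kept 10 (without COL5A3 and COL6A3) and left 4 list genes higher, and taking only the most counted bin per gene kept 9 (without COL18A1, COL5A3 and COL6A3); both test fewer genes or counts. With the adjusted p alone, 14 collagen genes were lower, 25 list genes higher and 21 lower. Leaving out each replicate gave 6 to 8 collagen genes higher and 5 to 7 lower, and 6 to 8 list genes higher and 6 to 7 lower. COL5A3 fell to 0.96 without WT replicate 1, and after subtracting the median of their neighbours COL5A3, COL9A3 and COL18A1 had 0.71, -0.41 and -0.79. In the most counted bin alone COL2A1 had -7.46, COL9A1 4.67 and COL24A1 -8.62, the last with no MUL1(-/-) counts and so no measure of size. COL9A2, COL13A1, COL1A2, COL15A1 and COL16A1 passed the thresholds when single replicates were left out. These genes are not among the 18 collagen genes followed over all settings. Of 284 values of the 18, 276 kept direction and side of the fold threshold, 8 fell short of it and 0 reversed. The 8 include the values of COL5A3, COL9A3 and COL18A1 less their neighbours, which have no adjusted p. The calls of COL5A3 and COL6A3 lost under the 1 CPM filter and in the most counted bin had no value and are not counted. Deviations of same-numbered samples correlated by -0.0836, 0.160 and 0.102, and those of differently numbered samples by -0.181 to 0.103. Pairing by number was thus neither shown nor excluded. With the number as a replicate block the collagen calls were 7 higher and 5 lower and the list calls 7 and 7. Genes near the floor of 3 counts are limited by depth.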
